A study of Rattus norvegicus with 7 samples.

Results

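The proteasome subunits and ubiquitin-conjugating enzymes of rat testis were followed after a toxic dose of cadmium. Members were the probe sets whose single gene symbol in the array annotation begins with Psma, Psmb, Psmc, Psmd, Psme, Psmf, Psmg or Ube2: 112 probe sets for 75 genes, of 31042 probe sets and 14217 named genes on the array. Of these, 60 probe sets (46 genes) have a Psm symbol and 52 (29 genes) a Ube2 symbol. Psmc3ip, a cofactor of meiotic recombination, and Psme3ip1, a protein that binds the activator subunit Psme3, carry the prefix without being proteasome subunits and were counted apart from every subunit group. Both remain in the totals given for Psm symbols, probe sets and promoters. The rule left out 14 probe sets that name several genes, among them all those of Psmb6, Psme3 and Ube2v1, and no single-gene probe set stands for Psma8 or Ube2d3.

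Testes came from adult male Sprague-Dawley rats, an outbred stock, with no transgene or mutant allele named. The groups were untreated rats at 0 h (n = 3), rats 8 h after cadmium chloride (n = 2) and rats 20 h after it (n = 2), the salt having been given once at 3 mg/kg into the peritoneal cavity. The labels call the arrays biological replicates, and no vehicle-injected group is named, so injection and cadmium cannot be told apart. The array was the Affymetrix Rat230_2, which measures each transcript by one or more probe sets, and the unit is a linear signal intensity scaled by array.

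The proteasome is the barrel-shaped protease that destroys ubiquitin-tagged proteins. Its core has outer rings of alpha subunits, which gate the entrance, and inner rings of beta subunits, some of which cut. A regulatory particle caps the barrel: its ring of ATPases (Psmc) unfolds the substrate, and its other subunits (Psmd) bind ubiquitin and remove it. Ubiquitin reaches a substrate through an activating enzyme, a conjugating enzyme (most Ube2 proteins) and a ligase. In testis the system is known for the removal of histones in spermatids and for DNA repair in meiosis, and metals such as cadmium are known to damage proteins that it then clears.

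Sequence is shown first for the subunits whose promoters hold the antioxidant response element, because this element is bound by Nfe2l1 and Nfe2l2, the factors known in mouse and human cells to raise proteasome genes under stress. The letters TGACNNNGC were searched on both strands of the 250 bases before each gene's start in RefSeq's GRCr8 annotation, in which 67 of the 75 genes had an entry. They were present in 12 of 67 member promoters (17.9%), in 6 of 42 with a Psm symbol (14.3%) and in 6 of 25 with a Ube2 symbol (24.0%), against 2793 of 27457 promoters of all genes (10.2%). A match is a description of letters and not a shown binding site. The matches of the 6 proteasome genes and of Ube2n follow, each with up to 6 bases either side, written 5′ to 3′ along the strand that holds the match and with the fixed letters of the element in capitals.
Psma3 (alpha ring, chr6:95219737-95219745, minus strand): tgcTGACccgGCaggcca
Psmb2 (beta ring, chr5:144254990-144254998, plus strand): cgccaaTGACcggGCggtcgc
Psmb5 (beta ring, chr15:32047431-32047439, minus strand): aagctgTGACgtcGCggcgtt
Psmd1 (regulatory particle, chr9:94157806-94157814, plus strand): gatctaTGACctcGCgagaat
Psmd9 (assembly chaperone, chr12:39018333-39018341, minus strand): ttccggTGACctcGCcccacc
Psmd9 (the other match, chr12:39018380-39018388, plus strand): ttcagaTGACccgGCagagct
Psme4 (activator, chr14:108706588-108706596, minus strand): aggaggTGACccaGCggcttt
Ube2n (conjugating enzyme, chr7:32041137-32041145, minus strand): ggccccTGACgcaGCccattc
The CCAAT box, a common promoter element read as CCAAT on either strand, was in 21 of 42 Psm promoters and 9 of 25 Ube2 promoters, against 9416 of 27457 promoters of all genes (34.3%). The 9 tested probe sets of the 6 Psm genes with TGACNNNGC had a median log2 fold change of 0.09 at 8 h and 0.05 at 20 h, beside 0.08 and 0.06 for the 42 probe sets of the 36 Psm genes without it.

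Before the test, probe sets had to lie above the 40th percentile of their array on at least 2 of 7 arrays. The filter left 104 members (57 Psm, 47 Ube2), at least 1 for each of the 75 genes, among 20857 probe sets in all. The 8 that did not pass were dim further probe sets of Psmb5, Psmc4, Ube2b, Ube2e3, Ube2k and Ube2z. Fold changes below are differences of mean log2(signal + 15), positive where the first-named group was higher, with the standard error (SE) of limma's fit over all 7 arrays.

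Arrays differed in ways that cross the groups. They were hybridized on 3 days: untreated 1 and 20 h 1 on day 1, untreated 2 alone on day 2, and untreated 3, both 8 h arrays and 20 h 2 on day 3, so that every 8 h array shares its day with only 1 untreated array. The actin probe sets for the 3′ and 5′ ends of its mRNA, which gauge how intact the RNA was, stood in a log2 ratio of 1.191 to 1.422 on day 3 arrays, against 0.733 to 0.985 on arrays of days 1 and 2. All 7 spermatid markers, all 7 spermatocyte markers and all 6 Leydig markers looked for passed the filter, as did 7 of 8 Sertoli markers, so the defining markers of the labelled tissue were present. In bulk tissue, fewer cells of a type and less RNA per cell cannot be told apart.

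No proteasome subunit or ubiquitin-conjugating enzyme passed the test at 8 h or 20 h. By limma with Benjamini-Hochberg adjustment over all 20857 probe sets, 0 of 104 members had an adjusted p under 0.05 in either comparison with untreated testis or between the times, where the share called among all probe sets was 0.0% in each. The lowest adjusted p of a member was 0.84 at 8 h and 1.0 at 20 h. Before adjustment 1 member had a p under 0.05 at 8 h (0.962%, against 5.22% of all probe sets), namely a probe set of Ube2k, and 1 at 20 h (0.962%, against 3.11%), a probe set of Ube2n. Between 20 h and 8 h it was 0 members, against 1.92% of all probe sets. One untreated array decided these counts: without untreated 3 the unadjusted p was under 0.05 for 24 members at 8 h (23.08%, against 16.25% of all probe sets) and 12 at 20 h (11.54%, against 8.02%), with 0 passing after adjustment.

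The members' changes were smaller than those of the array at large, from which they were not matched for brightness. The median log2 fold change of the 104 members was 0.06 at 8 h, with 64 higher and 40 lower than untreated testis, while over all probe sets it was -0.08, with 39.0% higher and 61.0% lower. At 20 h the members' median was 0.03, with 55 higher and 49 lower, and that of all probe sets -0.05, with 41.2% higher and 58.8% lower. Taken without sign, the median change was 0.15 for members and 0.20 for all probe sets at 8 h, and 0.11 and 0.17 at 20 h. The 95% confidence interval of the fold change lay wholly within a 2-fold change either way for 89 of 104 members at 8 h (85.6%, against 67.7% of all probe sets) and for 94 at 20 h (90.4%, against 70.5%). Over the 7 arrays, the highest signal was under 1.5 times the lowest for 62 of 104 members and for 5766 of 20857 probe sets, and over 2 times the lowest for 13 members and 8723 probe sets.

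The 8 steadiest tested members, by the ratio of the highest to the lowest array, came from several roles. Ube2j2, a conjugating enzyme of the endoplasmic reticulum membrane, gave 2158.6, 2111.1 and 2127.9 in untreated testis, 2250.3 and 2126.8 at 8 h, and 1964.2 and 2126.6 at 20 h. Its highest array was 1.15 times its lowest. The beta subunit Psmb7, which has the trypsin-like activity, gave 1531, 1622.6 and 1769.4 in untreated testis, 1531.4 and 1534.6 at 8 h, and 1647.2 and 1601.8 at 20 h, a ratio of highest to lowest of 1.16. Ube2m, which conjugates NEDD8 to cullins, also had a ratio of 1.16. The others were Ube2g1 by 1398864_at (1.15), Ube2o (1.17), Psmd14 by 1394082_at (1.18), Psmc5 (1.18) and Psmb1, a beta subunit without catalytic activity (1.19). In Psmb7 every cadmium array lay within the untreated range, and in Ube2j2 one was above that range, one below it and the others within it.

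**Figure D1:**
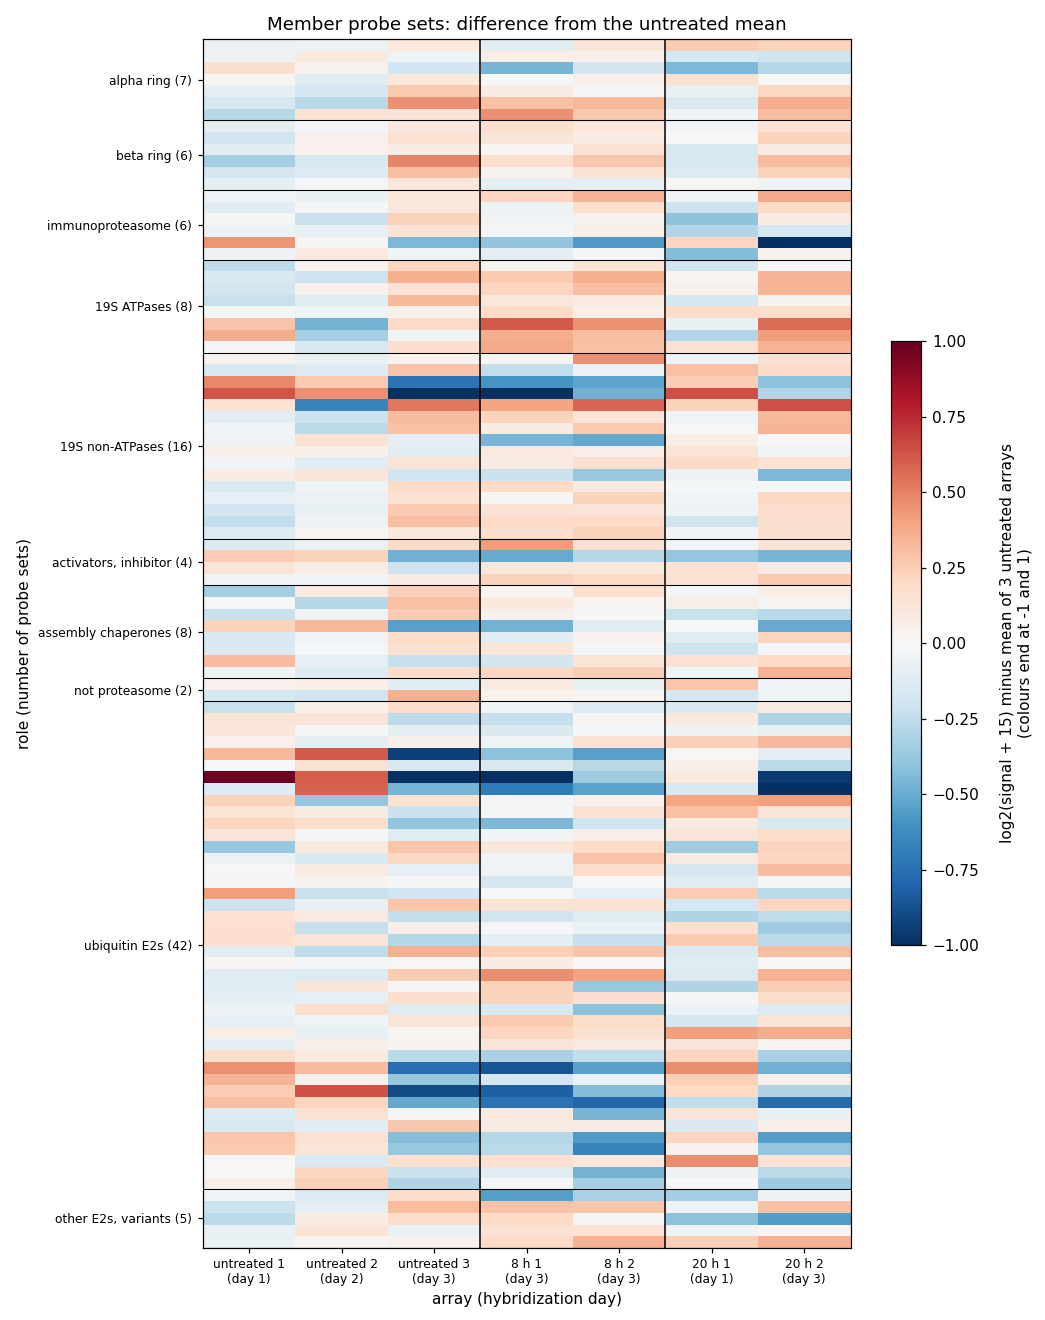
Heat map of the 104 tested probe sets (rows, grouped by role) on the 7 arrays (columns, in time order with the hybridization day marked); colour is log2(signal + 15) minus the probe set's mean over the untreated arrays. Most rows are pale, and the rows with strong colour often have untreated 3 in the same colour as the 8 h arrays of its day.

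Among the subunits of the core, the alpha ring, which gates the barrel, had a median log2 fold change of 0.05 at 8 h (6 probe sets higher, 1 lower) and 0.07 at 20 h (5 higher, 2 lower). Psma7 gave 535.8, 724.1 and 716.5 in untreated testis, 901.2 and 789.1 at 8 h, and 636.4 and 815.8 at 20 h. Both 8 h arrays were above the untreated range and the 20 h arrays straddled its top, with a log2 fold change of 0.36 ± 0.18 (SE) at 8 h and 0.14 ± 0.18 at 20 h. Psma3 was the alpha subunit with a lower mean at both times: 338.4, 309.2 and 262.7 in untreated testis, 214.6 and 263.8 at 8 h, and 216.8 and 244.9 at 20 h. Both 20 h arrays were below the untreated range, and the log2 fold change was -0.32 ± 0.18 at 8 h and -0.37 ± 0.18 at 20 h. Psma2 was below the untreated range at 20 h too, at 1029.8 and 1014.5 against 1124.2, 1243.9 and 1135.2 in untreated testis (-0.19 ± 0.13), and had 0.06 ± 0.13 at 8 h. A probe set shared by Psma3 and its copy Psma3l, outside the rule, gave 2751.3, 2500.7 and 2938.8 in untreated testis, 2665.5 and 3102 at 8 h, and 2648 and 3452.5 at 20 h, so it did not show Psma3's lower values. Psma6 separated by day: it gave 16730.1 on untreated 3, 14928.4 and 15271.8 at 8 h and 15705 on 20 h 2, all hybridized on day 3, and 10022.3 to 11019.1 on the other 3 arrays.

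The beta ring had a median log2 fold change of 0.09 at 8 h (5 higher, 1 lower) and 0.05 at 20 h (4 higher, 2 lower). Psmb5, the subunit with the chymotrypsin-like activity that proteasome inhibitor drugs target, gave 3210.5, 3311.1 and 4445.9 in untreated testis, 3710 and 4005.4 at 8 h, and 3278.7 and 4249.9 at 20 h. The groups overlapped, and the log2 fold change was 0.09 ± 0.18 at 8 h and 0.05 ± 0.18 at 20 h. Psmb4, a beta subunit without catalytic activity, was widest in the ring, from 2563 on untreated 1 to 4520.1 on untreated 3. All 6 beta probe sets were higher on untreated 3 than the mean of untreated 1 and 2.

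The immunoproteasome subunits, which replace catalytic beta subunits under interferon, and the activator subunits Psme1 and Psme2, which interferon also raises, had a median log2 fold change of 0.01 at 8 h (3 higher, 3 lower) and -0.18 at 20 h (1 higher, 5 lower). Psmb8 gave 215.1, 230.2 and 252.1 in untreated testis, 223.7 and 261.8 at 8 h, and 199.4 and 269 at 20 h. Psmb9 gave 167.2, 142 and 200.2 in untreated testis, 163.7 and 172.4 at 8 h, and 124 and 179.6 at 20 h. The 20 h arrays spanned the whole untreated range of Psmb8, and for Psmb9 one of them was below that range and the other within it. Psmb10 was above the untreated range at 8 h, at 328.7 and 359.9 against 272, 267.7 and 306.1 in untreated testis (log2 fold change 0.28 ± 0.18). Its 20 h values were 273.9 and 371.5. Psme1, by its brighter probe set, was below the range at 20 h, at 344.4 and 375.1 against 407.5, 402.3 and 469 in untreated testis (log2 fold change -0.23 ± 0.15). Its dim 1394006_at gave 75.7, 52.3 and 33.8 in untreated testis, 35.9 and 30.2 at 8 h, and 62.6 and 7.3 at 20 h, with overlap at 20 h (-0.68 ± 0.52).

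Ube2l6, the enzyme that conjugates the interferon-induced modifier ISG15, was dim. It gave 32.1, 44.4 and 49.2 in untreated testis, 49.8 and 40.8 at 8 h, and 27.5 and 23.4 at 20 h, so both 20 h arrays were the lowest (log2 fold change -0.48 ± 0.32 at 20 h). Of 9 interferon targets looked for, 5 passed the filter, and they did not move together. Tap1 was below the untreated range on every cadmium array, at 34.1 to 43.3 against 57.6, 44.9 and 75.9. Ifit3 was above it at 8 h, at 37.5 and 40.1 against 27.5, 29.2 and 31.9, and gave 35.8 and 31.4 at 20 h. Gbp2 gave 128.3, 90.2 and 103.7 in untreated testis, 89.4 on both 8 h arrays, and 124.9 and 81.6 at 20 h. B2m, the light chain of class I histocompatibility molecules, gave 2259.3, 2902.1 and 3298.1 in untreated testis, 3722.6 and 3565.3 at 8 h, and 2263.3 and 3386.7 at 20 h, and the 4 arrays of day 3 were the highest. Irf1, an interferon-induced transcription factor, reached 184.3 on 20 h 1 and lay between 68.9 and 96.5 on the other 6 arrays. On that same array Psmb8 and Psmb9 had their lowest values of the 7, namely 199.4 and 124. Of 10 macrophage and leukocyte markers 7 passed the filter. The signals of all 10 summed to 1588.1 to 1721 at 8 h and 1617.5 to 1762.7 at 20 h, against 1494.2 to 1599.9 in untreated testis. Mrc1, at 817.7 to 931.4 over all arrays, made up the largest part of that sum, and the markers did not move together. Cd163 was above the untreated range on every cadmium array, at 77.2 to 137.3 against 37.4 to 52.3. Csf1r was below its untreated range of 122.9 to 128.9 on every cadmium array, and lowest on 8 h 1, at 70.8. Ptprc, S100a8 and S100a9 did not pass. Leydig markers summed to 2468.8 on 20 h 1 and to 5871.1 to 10983.9 on the other 6 arrays. Summed endothelial markers were 462.4 to 739.6 at 8 h and 548.6 to 794.7 at 20 h, against 890.0 to 1008.8 in untreated testis. The part of these cells in the immunoproteasome values was not tested.

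In the regulatory particle, the ATPase ring had the highest median of any role group at 8 h, 0.28 with all 8 probe sets higher, and 0.18 at 20 h with 6 higher and 2 lower. With the day as a term in the fit the medians were 0.09 and 0.04. Untreated 2, alone on its day, adds nothing to the fold changes of a fit with that term, here and below. Psmc6, an ATPase subunit with 3 tested probe sets, had the largest single value, 0.54 ± 0.27 at 8 h by 1379850_at, which gave 217.4, 122.8 and 202.9 in untreated testis, 277.9 and 247.1 at 8 h, and 166.6 and 265.8 at 20 h. Both 8 h arrays and 20 h 2 were above the untreated range, and 20 h 1 was within it. The 8 h value was 0.30 without untreated 2 and 0.17 with the day in the fit. A further Psmc6 probe set, 1384323_at, gave 283, 254.6 and 323 in untreated testis, 374.9 and 353.1 at 8 h, and 318.9 and 367.5 at 20 h, a log2 fold change of 0.33 ± 0.17 at 8 h and 0.25 ± 0.17 at 20 h. The last, 1382385_at, overlapped between groups with 0.33 ± 0.34 at 8 h and 0.06 ± 0.34 at 20 h. Psmc3 was above the untreated range at 8 h, at 5158.4 and 5477.4 against 3913.2, 4574.3 and 4924.2 in untreated testis (log2 fold change 0.26 ± 0.15).

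Psmc5, an ATPase subunit with 1 probe set, was one of the few members above the untreated range on every cadmium array. It gave 2018.7, 1977.5 and 2105.8 in untreated testis, 2327.8 and 2129.2 at 8 h, and 2310.2 and 2299.3 at 20 h. The shift was small, 0.13 ± 0.12 at 8 h and 0.18 ± 0.12 at 20 h on the log2 scale, and the lowest cadmium array was just above the highest untreated one.

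The other subunits of the regulatory particle had a median of 0.13 at 8 h (11 higher, 5 lower) and 0.06 at 20 h (12 higher, 4 lower). Psmd2, a scaffold subunit, was above the untreated range at 20 h, at 3261.4 and 3161 against 2804.7, 2661.3 and 3139 in untreated testis, a log2 fold change of 0.17 ± 0.13. Psmd4, a ubiquitin receptor, gave 1060.8, 1142.6 and 1336.7 in untreated testis, 1349.5 and 1250.3 at 8 h, and 1157.3 and 1176.8 at 20 h, with overlap at both times (0.14 ± 0.14 and -0.01 ± 0.14). Psmd12, a lid subunit, had one of the largest values at both times, 0.49 ± 0.30 at 8 h and 0.43 ± 0.30 at 20 h. Its signals were 1291.1, 729.5 and 1687.7 in untreated testis, 1537 and 1752.2 at 8 h, and 1366.1 and 1832.1 at 20 h, so the groups overlapped and 1 untreated array was far below the rest. Without untreated 2 the log2 fold change was 0.15 at 8 h and 0.10 at 20 h.

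Psmd11, a lid subunit known in human stem cells to promote proteasome assembly, had the members' most negative value at 8 h and their most positive value between the times. Its dim probe set 1380252_at gave 181.3, 158.8 and 44.7 in untreated testis, 34.6 and 75.9 at 8 h, and 182.7 and 88.7 at 20 h. The low arrays were those of day 3, untreated 3 among them, and the log2 fold change was -0.92 ± 0.52 at 8 h, but -0.03 with the day in the fit. Its brightest probe set, 1374712_at, gave 1095.2, 1113.9 and 1491.5 in untreated testis, 1028.7 and 1172.2 at 8 h, and 1502.9 and 1398.8 at 20 h. There untreated 3 was high and the 8 h arrays were not (log2 fold change -0.15 ± 0.17 at 8 h and 0.25 ± 0.17 at 20 h).

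Psmd14, the enzyme of the lid that cuts ubiquitin off the substrate, differed between its probe sets as well. The dim 1386073_at gave 78.5, 91.9 and 75.7 in untreated testis, 55.3 and 52.9 at 8 h, and 85.6 and 82 at 20 h, so that only the 8 h arrays were low (log2 fold change -0.49 ± 0.23 at 8 h and 0.03 ± 0.23 at 20 h). The brighter 1394082_at gave 691.6, 688.6 and 619.1 in untreated testis, 714.4 and 695.8 at 8 h, and 729.6 and 652.4 at 20 h, a value of 0.08 ± 0.14 at 8 h. The remaining probe set, 1383429_at, had 0.17 ± 0.19 at both times, with overlapping groups. The low 8 h values of Psmd14 therefore stood on 1 of its 3 probe sets.

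Among activators and inhibitors, Psmf1, which binds the core and inhibits it in the test tube, was above the untreated range on all 4 cadmium arrays. It gave 4804.4, 4823.8 and 5252.6 in untreated testis, 5813.5 and 5685.8 at 8 h, and 5488.5 and 5941.4 at 20 h. The log2 fold change was 0.21 ± 0.12 at 8 h and 0.20 ± 0.12 at 20 h. Psme4, the activator known in mouse for the degradation of acetylated histones in spermatids, had 3 probe sets that did not go together. The probe set 1368817_at gave 2896.3, 3068.8 and 3666.7 in untreated testis, 4271.1 and 3558.3 at 8 h, and 3127.4 and 3487.4 at 20 h (0.29 ± 0.15 at 8 h). Its dimmer 1368818_at gave 298, 290.7 and 172.5 in untreated testis, 169.8 and 199.9 at 8 h, and 185.4 and 175 at 20 h (-0.39 ± 0.24 at 8 h and -0.42 ± 0.24 at 20 h). In that probe set untreated 3 stood with the cadmium arrays. The remaining bright 1387345_at gave 3638.6, 3505.3 and 2874.5 in untreated testis, 3592.1 and 3568.5 at 8 h, and 3681.7 and 3518.5 at 20 h. Its groups overlapped at both times (0.11 ± 0.14 at 8 h and 0.12 ± 0.14 at 20 h), and untreated 3 was its lowest array.

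The assembly chaperones, which help build the core and the cap and then leave, had a median of 0.04 at 8 h (5 higher, 3 lower) and 0.03 at 20 h (5 higher, 3 lower). Psmg1 gave 883.6, 953 and 1114.9 in untreated testis, 910.4 and 1008.1 at 8 h, and 908.2 and 1138.9 at 20 h, and its groups overlapped at both times. Psmg4 was above the untreated range at 8 h, at 2284.6 and 2349.7 against 1914.6, 1797.1 and 2239.3 in untreated testis (0.23 ± 0.16). The meiotic cofactor Psmc3ip, which acts with the recombinases in spermatocytes, gave 2289.6, 2328.9 and 2050.9 in untreated testis, 2366.4 and 2109 at 8 h, and 2695.8 and 2173.8 at 20 h, with overlap at both times.

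**Figure D2:**
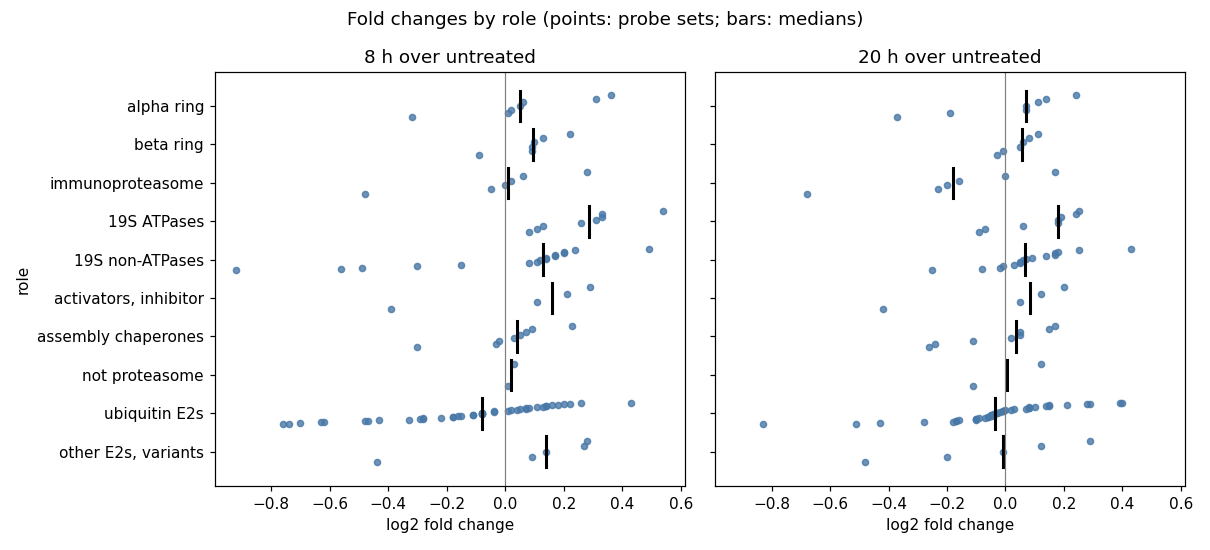
Log2 fold change (horizontal axis) of each tested probe set (points) at 8 h and at 20 h over untreated testis, by role group (rows; 19S is the regulatory particle, E2 a conjugating enzyme), with the group median as a bar. The group medians lie between -0.18 and 0.28, and the most negative point is -0.92 for Psmd11 at 8 h.

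The conjugating enzymes of ubiquitin had a median log2 fold change of -0.08 at 8 h (17 higher, 25 lower) and -0.03 at 20 h (16 higher, 26 lower). Ube2n, which builds the signalling chains of DNA repair together with an inactive partner, had the lowest unadjusted p at 20 h. Its probe set 1399143_at gave 1601.5, 1454.6 and 1569.3 in untreated testis, 1791.1 and 1710.7 at 8 h, and 2054.3 and 1996.4 at 20 h. All 4 cadmium arrays were above the untreated range and the 20 h arrays were above those of 8 h. The log2 fold change was 0.18 ± 0.13 at 8 h and 0.39 ± 0.13 at 20 h, with a 95% interval at 20 h of 0.11 to 0.67 (limma, unadjusted p = 0.011, adjusted p = 1.0). With the day in the fit the 20 h value was 0.35. The gene's other probe set, 1369617_at, gave 4575.2, 4702.2 and 5301.5 in untreated testis, 5821.4 and 5514.4 at 8 h, and 4289.4 and 5340.3 at 20 h, which is a log2 fold change of 0.22 ± 0.14 at 8 h and -0.02 ± 0.14 at 20 h. It was above the untreated range at 8 h alone, so the 20 h value of Ube2n stood on 1 of its 2 probe sets.

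Ube2v2, an inactive variant that is the known partner of Ube2n, was also above the untreated range on every cadmium array. It gave 940.7, 1003.7 and 1017.8 in untreated testis, 1135.6 and 1257.3 at 8 h, and 1165.1 and 1261.5 at 20 h. The log2 fold change was 0.27 ± 0.13 at 8 h and 0.29 ± 0.13 at 20 h (limma, unadjusted p = 0.069 and 0.053), and 0.23 and 0.30 with the day in the fit. Ube2v2 has 1 probe set and no other to set beside it.

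The 4 members above the untreated range on all 4 cadmium arrays were thus Psmc5, Psmf1, Ube2v2 and 1399143_at of Ube2n. They are 3.85% of the members, where 1.82% of all probe sets were placed so, and 0 members were below the range on all 4, where 4.9% of all probe sets were. The upstream sequences of those with an entry in RefSeq's GRCr8 table follow, 250 bases ending just before the gene's start, in the direction of the gene. Capitals mark a match to TGACNNNGC or to CCAAT on either strand. Psmc5 lies at chr10:91687303-91687552 on the plus strand, Psmf1 at chr3:160720916-160721165 on the minus strand and Ube2n at chr7:32040959-32041208 on the plus strand.
Psmc5: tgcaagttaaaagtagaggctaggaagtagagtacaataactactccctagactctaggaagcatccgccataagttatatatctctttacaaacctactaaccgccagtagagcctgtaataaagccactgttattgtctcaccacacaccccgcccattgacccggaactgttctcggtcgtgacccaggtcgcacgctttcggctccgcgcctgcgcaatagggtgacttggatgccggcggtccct
Psmf1: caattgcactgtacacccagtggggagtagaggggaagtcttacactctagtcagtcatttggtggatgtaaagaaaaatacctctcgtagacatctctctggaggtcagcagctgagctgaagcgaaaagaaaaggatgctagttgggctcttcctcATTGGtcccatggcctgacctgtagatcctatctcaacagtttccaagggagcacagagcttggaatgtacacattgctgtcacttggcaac
Ube2n: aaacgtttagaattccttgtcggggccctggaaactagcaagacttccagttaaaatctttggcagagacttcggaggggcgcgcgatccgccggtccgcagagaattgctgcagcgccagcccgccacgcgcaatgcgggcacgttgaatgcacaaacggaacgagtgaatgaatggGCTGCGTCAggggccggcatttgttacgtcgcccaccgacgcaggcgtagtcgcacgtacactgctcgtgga
The letters differ among the 3: Ube2n has 1 match to TGACNNNGC, Psmf1 has 1 to CCAAT and Psmc5 has neither.

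**Figure D3:**
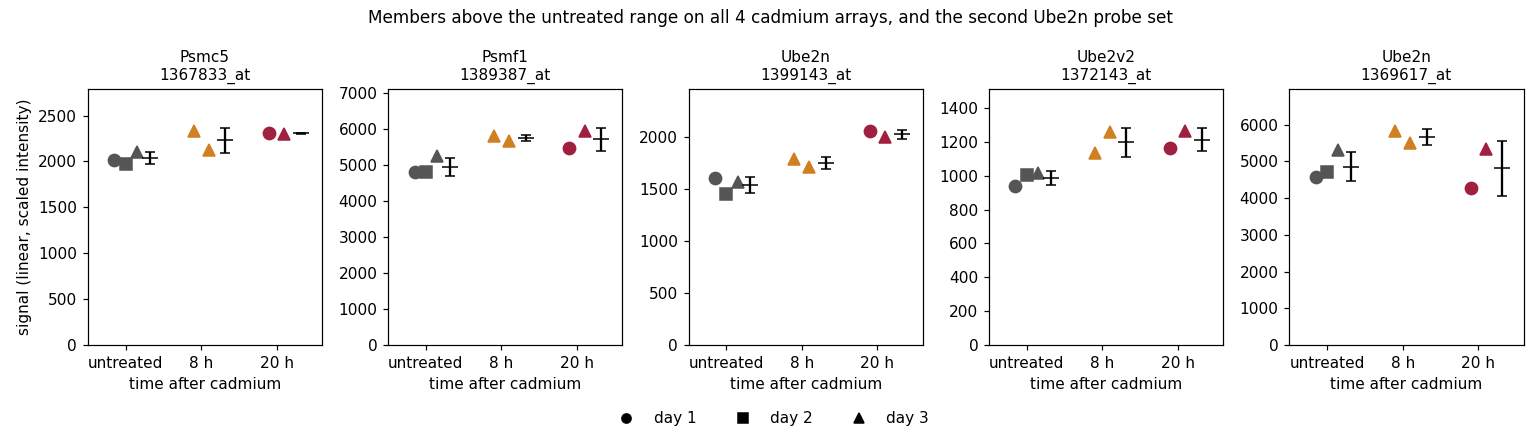
Linear signal on each of the 7 arrays (points, in time order, with the marker showing the hybridization day; bars at the side are the group mean ± SD) of Psmc5, Psmf1, Ube2v2 and Ube2n 1399143_at, which were above the untreated range on every cadmium array, and of the other Ube2n probe set. The gap is narrow for Psmc5, where the lowest cadmium array reads 2129.2 and the highest untreated array 2105.8, and the other Ube2n probe set reads 4289.4 and 5340.3 at 20 h, against 4575.2 to 5301.5 in untreated testis.

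Ube2k, which makes degradative chains, was the single member with an unadjusted p under 0.05 at 8 h. Its bright probe set gave 4814.1, 4759.6 and 6225.4 in untreated testis, 7222.9 and 6898.6 at 8 h, and 4715.6 and 6661.7 at 20 h. Both 8 h arrays were above the untreated range, and the log2 fold change was 0.43 ± 0.18 (limma, unadjusted p = 0.04, adjusted p = 0.84). The arrays of day 3 were the 4 highest, and with the day in the fit the value was 0.15. The other tested probe set of the gene, 1375965_at, had -0.08 ± 0.29 at 8 h with overlap, so this value stood on 1 of 2 probe sets. At 20 h it was 0.10 ± 0.18.

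Ube2b, whose loss in mouse makes males infertile with defective spermatids, was above the untreated range at 20 h by its brightest probe set, 1386923_at, at 3213.4 and 3415.8 against 2801.1, 2554.7 and 2814.2 in untreated testis (0.28 ± 0.13). Its probe set 1375642_at had overlapping groups, with -0.06 ± 0.14 at 20 h. Ube2a, its close relative on the X chromosome, overlapped on both probe sets, with -0.08 ± 0.16 and -0.11 ± 0.22 at 8 h. Ube2d2, a conjugating enzyme that serves many ligases, was above the range at 20 h by 1370523_a_at, at 1121.3 and 1135.6 against 1001.3, 646.7 and 944.3 in untreated testis (0.40 ± 0.19). Its other probe sets had 0.21 ± 0.15 and -0.04 ± 0.21 at 20 h, with overlap. Close relatives within the Ube2d and Ube2e families share sequence, so their probe sets may read more than 1 gene.

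The cell cycle and endoplasmic reticulum enzymes gave values in both directions. Ube2c, which starts chains for the anaphase-promoting complex, was below the untreated range at 8 h, on 1 array narrowly, at 1527.6 and 1398.4 against 1706.9, 1889.1 and 1529.1 in untreated testis (-0.22 ± 0.15). Ube2s, which extends those chains, overlapped at 8 h on both its probe sets, with 0.08 ± 0.16 and -0.43 ± 0.29. Ube2t, an enzyme of the Fanconi DNA repair pathway, gave 935, 849.8 and 595 in untreated testis, 644.4 and 483.7 at 8 h, and 804.1 and 591.2 at 20 h (-0.47 ± 0.23 at 8 h). There the 4 arrays of day 3 were the lowest. Ube2g2, which serves the degradation of misfolded proteins of the endoplasmic reticulum, overlapped on both probe sets at both times, with values from -0.04 to 0.14. Ube2j1, which acts in the same route and is needed for sperm formation in mouse, gave 7624, 6902.8 and 10529.5 in untreated testis, 9693.9 and 10034.1 at 8 h, and 7428.5 and 10193.1 at 20 h, again split by day. Ube2u, a conjugating enzyme, gave 516.5, 464.5 and 577.9 in untreated testis, 583.1 and 557 at 8 h, and 718.4 and 565.9 at 20 h, with 1 high array at 20 h (0.29 ± 0.17). Ube2h, a conjugating enzyme known for its rise in maturing red cells, had values from -0.16 to -0.04 at 8 h over its 3 probe sets. By 1372221_at it was below the untreated range at 20 h, at 361.6 and 373.6 against 499.2, 478.2 and 379.4 in untreated testis (-0.28 ± 0.17), and its other probe sets overlapped.

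The most negative values among the conjugating enzymes came from dim probe sets or from probe sets in which untreated 3 was low as well. Ube2ql1, by 1393291_at, gave 69.5, 64.7 and 33.1 in untreated testis, 26.2 and 24.9 at 8 h, and 42.9 and 25.2 at 20 h (-0.76 ± 0.37 at 8 h). Ube2d1, by 1390259_at, gave 69.8, 125 and 52.3 in untreated testis, 42.2 and 49.1 at 8 h, and 68.6 and 17.6 at 20 h (-0.62 ± 0.45 at 8 h and -0.83 ± 0.45 at 20 h). Its other probe set, 1385548_at, ran from 5 on untreated 3 to 102.5 on untreated 1, the widest of all members. The median signal of an array was 52.9 to 72.0, so these lay near or below the middle of all probe sets. Ube2q2, by the brighter of those with large values, gave 790.4, 712.4 and 331.2 in untreated testis, 307.3 and 389.2 at 8 h, and 797.6 and 405.4 at 20 h, a log2 fold change of -0.70 ± 0.38 at 8 h but -0.01 with the day in the fit.

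The enzymes of NEDD8, the modifier that switches on cullin ligases, were Ube2m and Ube2f. Ube2m was above the untreated range at 8 h by a narrow margin, at 2294.5 and 2299.4 against 1983.2, 2287.5 and 1979.5 in untreated testis (0.14 ± 0.13). Ube2f had probe sets in opposite directions: 1373753_at was below the range at 8 h, at 102.7 and 123.3 against 153.2, 142.6 and 179.7 in untreated testis (-0.44 ± 0.21), and 1375663_at had 0.28 ± 0.18 with overlap.

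Counted over all roles, 18 of 104 members were above the untreated range on both 8 h arrays (17.3%, against 7.59% of all probe sets) and 7 were below it (6.73%, against 15.4%). At 20 h, 8 were above (7.69%, against 4.65%) and 5 below (4.81%, against 10.7%). At both times the members held a larger share above the range than all probe sets and a smaller share below it, as counts. Between 20 h and 8 h, 17 members were above the 8 h range (16.3%, against 15.2% of all probe sets) and 18 below it (17.3%, against 13.2%), and the median difference was -0.02 against 0.02 for all probe sets. The members' means were higher at 20 h for 48 (46.2%, against 52.6% of all probe sets) and lower for 56 (53.8%, against 47.4%), and 92 had an interval within a 2-fold change (88.5%, against 65.0%).

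The largest positive differences between 20 h and 8 h were those of Psmd11 (1.09 ± 0.57 by 1380252_at and 0.48 ± 0.37 by 1376069_at), Ube2q2 (0.70 ± 0.41), Ube2ql1 (0.58 ± 0.54 by 1379414_at), Psmd14 (0.52 ± 0.26 by 1386073_at) and Ube2b (0.43 ± 0.52 by 1386924_at). On each of these both 20 h arrays were above the 8 h arrays. With the day in the fit these differences were 0.43 and 0.01 for the Psmd11 probe sets, 0.15 for Ube2q2, 0.17 for Ube2ql1, 0.49 for Psmd14 and 0.10 for Ube2b. The largest negative ones were those of Ube2l6 (-0.57 ± 0.35), Ube2k (-0.33 ± 0.20), Psmc6 (-0.30 ± 0.30 by 1379850_at and -0.27 ± 0.37 by the dim 1382385_at), Psmd9, an assembly chaperone (-0.27 ± 0.20 by 1368184_at), and Psme1 (-0.25 ± 0.17 by 1367663_at). With the day in the fit they were -0.50 for Ube2l6, -0.12 for Ube2k, -0.16 and -0.19 for the Psmc6 probe sets, -0.16 for Psmd9 and -0.18 for Psme1. None passed the test (limma, lowest adjusted p of a member 1.0). Of the 6 immunoproteasome probe sets all had lower means at 20 h than at 8 h, by a median of -0.15. With the day in the fit that median was 0.00. Psmb8 (0.10), Psmb9 (0.03) and Psmb10 (0.04) were then positive. Psme2 (-0.03) and the Psme1 probe sets (-0.18, and -0.88 by the dim 1394006_at) were negative. Against untreated testis, the group's median at 20 h was -0.21 with the day in the fit and -0.18 without it.

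About as many members separated by hybridization day as did not. All 4 arrays of day 3 were above the 3 other arrays for 30 of 104 members (28.8%, against 10.6% of all probe sets) and below them for 21 (20.2%, against 18.7%). Probe sets with Psm and Ube2 symbols had different counts: of 57 Psm probe sets, Psmc3ip and Psme3ip1 included, 22 were above and 5 below on day 3. Of 47 Ube2 probe sets 8 were above and 16 below. Within untreated testis alone, untreated 3 exceeded the mean of untreated 1 and 2 by a median of 0.20 on the log2 scale over Psm probe sets (42 of 57 higher) and by -0.10 over Ube2 probe sets (19 of 47 higher), with -0.11 over all probe sets. Taken without sign, that difference within untreated testis had a median of 0.29 over the members, beside their median of 0.15 at 8 h and 0.11 at 20 h. Over all probe sets it was 0.32, beside 0.20 and 0.17. These measures are unlike: the first sets 1 array against the mean of 2, the others a mean of 2 against a mean of 3. The first is therefore the noisier, and its size was not tested.

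The summed spermatid markers and the actin ratio moved with the same split. So did the Sertoli, Leydig and muscle sums, but not the endothelial, leukocyte or red cell sums. The summed signal of the 7 spermatid markers lay between 107963.6 and 113510.6 for day 3, against 73597.3 to 81595.8 for days 1 and 2, and the actin ratio was higher on day 3 as given above. Of the 7 spermatid markers Acrv1 did not separate, with its lowest value, 2279.2, on untreated 3. Sertoli sums were 12160.8 to 13618.5 on day 3, against 10714.9 to 12099.3. Clu made up most of that sum, and the Sertoli markers did not move together. Clu and Amh were higher on day 3, at 8565.1 to 9396.8 against 7114.6 to 8177.9 for Clu. Wt1 was lower on day 3, at 328.4 to 361.9 against 395.6 to 501.9. Cldn11, Inhbb, Rhox5 and Dhh overlapped. Leydig sums were 7089.5 to 10983.9, against 2468.8 to 6790.6. Muscle sums were lower on day 3, at 1323.5 to 1490.4 against 1531.8 to 1694.1. The sum of the 7 spermatocyte markers did not separate by day, but 2 of them did, in opposite directions. Ldhc was higher on day 3, at 14213.6 to 15743.8 against 10267.9 to 11135.9. Sycp1 was lower there, at 154.3 to 331.7 against 394.8 to 585.6. The spermatocyte sum was 32314.2 to 32335.6 at 8 h and 28932.3 to 32438.5 at 20 h, against 24889.3 to 28382.4 in untreated testis. The part of germ cell content, RNA integrity and hybridization day in the members' values was not tested.

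Same-day differences, each cadmium array minus the untreated array of its own day, were close to 0 for the members. Their median was -0.02 on 8 h 1 (48 of 104 higher), 0.00 on 8 h 2 (54 higher), 0.02 on 20 h 1 (59 higher) and 0.01 on 20 h 2 (54 higher). The median size of the difference was 0.12 to 0.14 for members and 0.21 to 0.23 for all probe sets. The differences of both 8 h arrays and of 20 h 2 all subtract the same array, untreated 3. With the day as a term in the fit, the median of Psm probe sets was -0.03 at 8 h and 0.02 at 20 h, in place of 0.09 and 0.06 without it, and the median of Ube2 probe sets was 0.01 and -0.01, in place of -0.08 and -0.03.

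Probe sets of one gene are a check on a gene's value that the choice of members did not use. Of 22 member genes with several tested probe sets, 12 had log2 fold changes of opposite sign at 8 h and 13 at 20 h. Between untreated 3 and the other untreated arrays the signs were opposite in 14, and 10 of these were also opposite at 8 h. For Psmd11 untreated 3 differed from the mean of untreated 1 and 2 by 0.43 on one probe set and by -1.63 on another, while on the probe sets of Psmd7 it differed by 0.40 and 0.45. Some of the opposite signs were of values near 0, such as -0.08 and 0.07 for Ube2g1 at 8 h and -0.01 and 0.02 for Ube2g2 at 20 h. Others were further apart, such as -0.44 and 0.28 for Ube2f at 8 h. The share of opposite signs among all genes with several probe sets was not counted, so whether these counts are particular to the members was not tested.

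**Figure D4:**
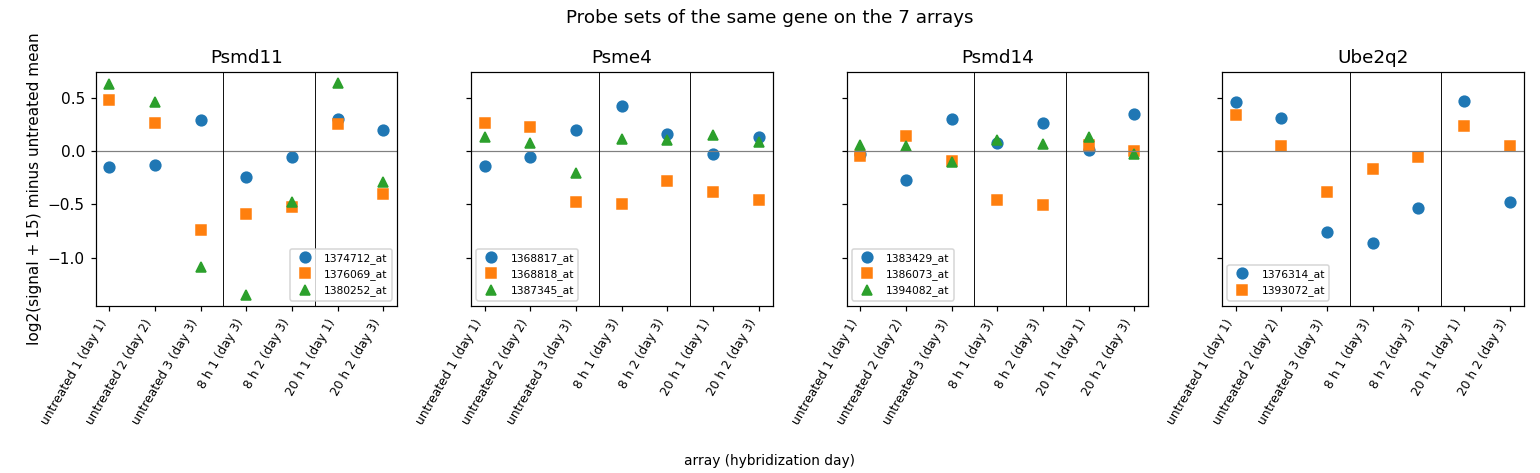
Log2(signal + 15) minus the untreated mean (vertical axis) on the 7 arrays (horizontal axis, in time order with the day in parentheses) for the probe sets of Psmd11, Psme4, Psmd14 and Ube2q2, one marker per probe set. In Psmd11 one probe set is high on untreated 3 while the other probe sets are low there, by -1.11 and -1.63 relative to untreated 1 and 2.

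Of 69 other genes of the pathway that were looked for, 54 had a tested probe set, and 0 passed in any comparison. Each was read by its brightest tested probe set. At 8 h 34 were higher and 20 lower than in untreated testis, with a median of 0.06, and at 20 h 30 were higher and 24 lower, with a median of 0.03. The members' medians of 0.06 and 0.03 were over all their tested probe sets and are an unlike measure. With 1 probe set per gene the members' median was 0.09 at 8 h. Cul3, the scaffold of a ligase whose substrates include Nfe2l2, was the only one with an unadjusted p under 0.05 against untreated testis: it gave 6882.6, 7074.4 and 7050.7 in untreated testis, 9174.8 and 8820.3 at 8 h, and 7034 and 9685.8 at 20 h (0.36 ± 0.15 at 8 h; limma, adjusted p = 0.84). Zfand2a, an arsenite-inducible protein that binds the proteasome, gave 93.9, 83.3 and 86.8 in untreated testis, 202.7 and 112 at 8 h, and 178.3 and 82.6 at 20 h. One array at each time stood well above the rest, and the log2 fold change was 0.69 ± 0.33 at 8 h and 0.42 ± 0.33 at 20 h.

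The regulators of proteasome genes stood beside these. Nfe2l2 gave 714.7, 740 and 798.5 in untreated testis, 785.5 and 800.9 at 8 h, and 959.7 and 859.7 at 20 h, so that both 20 h arrays were above the untreated range (0.27 ± 0.14; limma, adjusted p = 1.0). Nfe2l1 gave 252.5, 241.4 and 265.1 in untreated testis, 276.4 and 263.2 at 8 h, and 251.4 and 224.8 at 20 h, with overlap at both times. Uba1, the main activating enzyme of ubiquitin, was below the untreated range at 20 h, at 624.7 and 586.4 against 766.7, 766.6 and 713.1 in untreated testis (-0.30 ± 0.14; limma, adjusted p = 1.0). Siah1, a ligase, was below the untreated range at 8 h, at 159.4 and 142.7 against 363.9, 300.4 and 166.4 in untreated testis (-0.75 ± 0.34). Its untreated 3 value was close to those of 8 h. Uba7, the activating enzyme of ISG15, was dim and above the untreated range on all 4 cadmium arrays: it gave 55.3, 79.1 and 63.6 in untreated testis, 80.5 and 104.3 at 8 h, and 102.6 and 85 at 20 h (0.41 ± 0.25 and 0.43 ± 0.25).

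The remaining large values in the pathway were spread over roles. At 8 h they were negative for Cul4b, a ligase scaffold (-0.40 ± 0.28), Sae1, a subunit of the SUMO-activating enzyme (-0.36 ± 0.17), and Usp5, which recycles free ubiquitin chains (-0.28 ± 0.22), and positive for Ddi2, the protease that activates Nfe2l1 (0.34 ± 0.54). The dim Ddi2 gave 58.6, 55.8 and 5.1 in untreated testis, 40.5 and 49.5 at 8 h, and 43.7 and 35.2 at 20 h. Every cadmium array was thus below untreated 1 and 2, and the positive sign rested on untreated 3. At 20 h the remaining large values were negative for Ubr2, a ligase needed for male meiosis in mouse (-0.27 ± 0.20), Sqstm1, an autophagy receptor (-0.24 ± 0.18), and Uba6, an alternative activating enzyme (-0.24 ± 0.35), and positive for Txnl1, a thioredoxin bound to the proteasome (0.26 ± 0.15). Between 20 h and 8 h, 2 of the 54 had an unadjusted p under 0.05, Uba1 (-0.36 ± 0.15) and Sae1 (0.42 ± 0.18), and neither passed after adjustment. Siah1 (0.55 ± 0.37), Cul4b (0.34 ± 0.30) and Txnl1 (0.25 ± 0.16) were higher at 20 h than at 8 h, and Zfand2a (-0.28 ± 0.36), Rnf8, a ligase of DNA repair and histone removal (-0.25 ± 0.20), and Uchl1, a deubiquitinase of spermatogonia (-0.24 ± 0.22), lower.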

How the data were processed

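The authors deposited 1 linear intensity for each probe set and array, from MAS 5.0, and name GeneSpring 7.2 besides, per the series' design text; its trimmed mean (2% off each end) was 249.1 to 249.8 on every array. The instrument's settings files hold other information, per the file headers; untreated 2 was stained at 25 °C for 600 s, the others at 35 °C for 300 s, and its settings name mouse as the sample type where labels and array type are rat. It was kept.

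Values were analysed as log2(signal + 15), 15 being their 20th percentile, with no further normalization. The 3 groups were fitted in limma 3.58.1 (R 4.3.3) with an intensity trend, and p-values adjusted by Benjamini-Hochberg over 20857 probe sets (threshold 0.05). An array value is no count, so the number of arrays limits the precision. Alternatives were other pseudocounts, filters and scalings, the day or the replicate number as a block, day 3 alone and each array left out. The replicate numbers were not taken to pair arrays (correlations of deviations -0.02, 0.08 and 0.17).

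Members and lists were chosen with earlier results of these data known. Named were the 6 largest values either way per comparison, members outside the untreated range with an unadjusted p under 0.05, and a fixed list, with the 4 largest values either way for other pathway genes; Psmb4, Psmb7, Psmb1, Psmc3, Psma2, Psma6, Psmd2, Psmg4, Ube2g1, Ube2j2, Ube2m, Ube2o and Ube2f were added after their values were seen. Gene names are those of GEO's platform annotation; the Entrez IDs of all 112 members were in RefSeq and 0 symbols changed.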

Additional observations from a re-analysis of the deposited data

Results flagged for a closer look

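Psmd11 (1374712_at) was singled out because its arrays lay on opposite sides of the untreated mean at the 2 times: the log2 fold change was -0.15 at 8 h and 0.25 at 20 h, a difference of 0.40 between 20 h and 8 h that did not pass limma's test (adjusted p = 1.0). The dim probe set 1386073_at of Psmd14 was singled out in the same way, with -0.49 at 8 h and 0.03 at 20 h, a difference of 0.52 (adjusted p = 1.0). No group had enough arrays for a test of outlying arrays.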

How the results depend on the processing

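The count of members passing the test was 0 in each comparison under every alternative run, and 0 to 0 with each array left out. The median log2 fold change of the members moved by more than 0.07 at 8 h under 2 settings. That limit was the standard deviation of the members' median log2 signal and is not a spread of the fold change. The median fold change was 0.16 with scaling to one 75th percentile and -0.02 with the arrays of day 3 alone, against 0.06. With each array left out in turn it was 0.03 to 0.10 at 8 h, -0.02 to 0.07 at 20 h and -0.07 to 0.03 between 20 h and 8 h. Scaling to one 75th percentile put 75 members higher and 29 lower at 8 h and 72 and 32 at 20 h, in place of 64 and 40 and 55 and 49; the median of all probe sets was then 0.02 and 0.00. Quantile normalization put 56 higher and 48 lower at 8 h. With the replicate block the medians were 0.10, 0.06 and -0.02, and 26 members had an unadjusted p under 0.05 at 8 h (25.0%, against 18.02% of all probe sets) and 14 at 20 h (13.46%, against 9.2%); without untreated replicate 3, which that block leaves alone, it was 24 (23.08%, against 16.25%) and 12 (11.54%, against 8.02%). Without untreated replicate 2 it was 0 at 8 h and 1 at 20 h. Of the named probe sets, 11 of 34 kept their sign under all alternatives at 8 h, 13 of 32 at 20 h and 17 of 35 between the times, with most sign changes on day 3 alone. Groups of 2 and 3 arrays limit all of these, and dim probe sets near the added 15 most.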
